A study of Mus musculus with 12 samples.

Results

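Islets collected 3 days after toxin ablation of beta cells (3 DPA, with DPA read as days post-ablation) were compared with islets collected 1 day after it (1 DPA). The comparison uses 6 of the 12 libraries of the series, the 3 titled for 3 DPA and the 3 titled for 1 DPA, and is described over the 17294 of 48709 genes with enough counts to be tested. RNA was sequenced from pancreatic islets of female NSG mice, genotype NSG RIP-DTR Htz, given diphtheria toxin (DT) and sampled at 3 or 1 DPA. Untreated mice of the same sex and genotype (CTRL) and mice at 5 DPA, also given toxin, are used here for levels and for the shared estimate of spread. All 4 groups therefore carry the transgene and the immunodeficient background, and age was not given in the sources used here. Total counts were 46081176, 35774473 and 48568665 in 3 DPA replicates 1 to 3, against 38942407, 38102956 and 29867083 in 1 DPA replicates 1 to 3. The labels do not say whether the libraries came from separate animals. The spread behind every p-value is therefore that among these libraries, which may be technical.

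As background, RIP-DTR mice make the human receptor for diphtheria toxin where the rat insulin promoter is active, so that toxin enters beta cells. Inside a cell the toxin inactivates elongation factor 2 through its diphthamide residue, stops protein synthesis and kills the cell. NSG mice lack mature T, B and natural killer cells but keep macrophages. The islet is a cluster of hormone cells (beta, alpha, delta and PP cells) with capillaries, pericytes, fibroblasts, Schwann cells and resident macrophages, and isolated islets often carry some acinar and duct tissue. In bulk RNA, fewer cells of a type and less RNA per cell cannot be told apart. Log2 fold changes are 3 DPA over 1 DPA, given ± SE from edgeR's quasi-likelihood fit, and every adjusted p given with one comes from that fit. Levels are CPM, read counts brought to a common library size after TMM scaling.

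Of the genes tested, 7805 differed between 3 DPA and 1 DPA at an adjusted p under 0.05 (45.1%). Those higher at 3 DPA numbered 3534 (20.4%) and those lower numbered 4271 (24.7%). Most differences were small, since the median log2 fold change was 0.58 among genes called higher and -0.56 among genes called lower. A log2 fold change of at least 1 was reached by 846 of the genes called higher and 843 of those called lower, and of at least 2 by 297 and 172 genes. Every 3 DPA library lay above every 1 DPA library for 5184 genes (30.0%) and below for 5063 (29.3%). These shares are the background against which each gene list is read. The share called was close to 45.1% in the lists of p53 targets (47.8%), proteasome (48.4%), heat shock (46.2%), BCL2 family (40%) and fatty acid synthesis (45.5%). It was also close for histones (44.1%), beta cell identity (45%), DNA replication (46.4%) and alpha cell markers (45.5%). Those total counts do not set the lists apart. The split of calls depended on the scaling. With library sizes computed without the 50 most abundant genes, 59.5% of 8256 calls were higher at 3 DPA, against 45.3% under TMM. The median over all genes tested was then 0.15 on the log2 scale, instead of 0.04.

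The insulin genes took 14.4%, 17.4% and 16.5% of counts in the 3 DPA libraries, against 14.2%, 13.1% and 10.4% in the 1 DPA libraries. All 3 DPA libraries lay above all 1 DPA libraries (exact permutation test, two-sided, p = 0.1, which is the lowest value possible with 3 libraries a group). Acinar genes took 1.22%, 1.65% and 0.569% of counts at 3 DPA and 6.02%, 3.12% and 0.689% at 1 DPA, so the groups overlapped (exact permutation p = 0.3). Within 1 DPA, replicate 3 stood apart with the lowest acinar share and the highest clock output genes. Within 3 DPA, replicate 1 stood apart with the highest sums of duct, REG and early genes and replicate 3 with the highest Cd4, Ccl5 and Traf1.

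Markers of macrophages were higher at 3 DPA in every case measured. All 16 macrophage markers rose, and the median log2 fold change of the list was 1.47, against 0.04 for all genes. Summed, they reached 498.9, 287.4 and 496.8 CPM in the 3 DPA libraries, against 141.7, 134.1 and 164.7 CPM in the 1 DPA libraries. The CTRL sums were 735.3, 474.4 and 175.5 CPM, a range that spans the 3 DPA values. Ms4a7, a membrane protein of tissue macrophages, had 8.68, 6.65 and 10.2 CPM at 3 DPA, against 2.67, 2.8 and 3.04 CPM at 1 DPA. The groups did not overlap and the gene rose (log2 fold change 1.58 ± 0.25, adjusted p = 0.000421). Cx3cr1, the receptor for the chemokine fractalkine, had 24.2, 16.9 and 21.6 CPM at 3 DPA, against 9.25, 9.47 and 11.3 CPM at 1 DPA, with the groups apart (log2 fold change 1.06 ± 0.20, adjusted p = 0.0015). Lyz2, which encodes lysozyme of myeloid cells, had 116, 49.3 and 118 CPM at 3 DPA, against 14.6, 13 and 17.8 CPM at 1 DPA (log2 fold change 2.65 ± 0.78, adjusted p = 0.0229). The 3 DPA replicate 2 library was the lowest of its group. The number called depended on single libraries, although the direction of the list median did not change. The 16 called members became 6, 5 and 8 without 1 DPA replicates 1, 2 and 3. They became 6 when 3 DPA replicate 1 or 3 was left out, and 6 with limma-voom.

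Of 15 genes linked with the uptake of dead cells and the handling of their lipid, 8 were called higher and 1 lower (median 1.06). In every 1 DPA library Lpl and Abca1, given below, each exceeded the summed macrophage markers. Such a comparison of levels does not show which cells express a gene, and the cells that express these genes were not tested. Lgals3, a galactose-binding lectin of activated macrophages, had 34, 16 and 24.1 CPM at 3 DPA, against 3.28, 3.35 and 3.27 CPM at 1 DPA. Its groups were far apart (log2 fold change 2.91 ± 0.61, adjusted p = 0.00412). Trem2, a lipid-sensing receptor, had 12.1, 5.18 and 7.91 CPM at 3 DPA, against 3.22, 2.88 and 3.58 CPM at 1 DPA (log2 fold change 1.38 ± 0.31, adjusted p = 0.00375). Cd36, a scavenger receptor for fatty acids, had 23.7, 17.6 and 17.1 CPM at 3 DPA, against 4.46, 5.41 and 5.9 CPM at 1 DPA (log2 fold change 1.89 ± 0.56, adjusted p = 0.0208). Spp1, which encodes osteopontin, had 129.8, 132 and 168 CPM at 3 DPA and 45.2, 62.8 and 51.7 CPM at 1 DPA (log2 fold change 1.43 ± 0.29, adjusted p = 0.00339). The member called lower was Abca1, a cholesterol exporter, with 134, 137 and 158 CPM at 3 DPA, against 175, 186 and 256 CPM at 1 DPA (log2 fold change -0.52 ± 0.13, adjusted p = 0.00612). Lpl, the lipase that releases fatty acids from lipoproteins, had 341, 364 and 409 CPM at 3 DPA and 183, 206 and 225 CPM at 1 DPA and rose (log2 fold change 0.86 ± 0.09, adjusted p = 1.65e-05). Gpnmb, a glycoprotein of lipid-laden macrophages, had 9.44, 3.51 and 7.33 CPM at 3 DPA, against 0.578, 0.976 and 0.539 CPM at 1 DPA. The 3 DPA values all lay above the 1 DPA values, yet the gene did not pass the test (log2 fold change 3.26 ± 1.28, adjusted p = 0.0648).

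Of 5 monocyte and neutrophil markers tested, only Ccr2 was called. Ccr2, the receptor that brings monocytes out of the blood, had 12.2, 5.69 and 6.8 CPM at 3 DPA, against 2.53, 1.93 and 1.3 CPM at 1 DPA (log2 fold change 2.1 ± 0.52, adjusted p = 0.00823). The neutrophil genes S100a8 and S100a9 were too low to be tested, with 12 and 18 counts summed over the 3 DPA libraries, against 14 and 6 counts over the 1 DPA libraries. Lymphocyte markers gave no call among the 3 tested. Cd3e and Gzmb, which mark T cells and cytotoxic cells, had 0 counts in all 6 libraries, which allows up to 3 counts in a library. Cd4, found on helper T cells and on some macrophages and dendritic cells, had 1.86, 0.877 and 17.1 CPM at 3 DPA, against 0.578, 0.237 and 0.349 CPM at 1 DPA (log2 fold change 4.09 ± 1.85, adjusted p = 0.102). The high value belonged to 3 DPA replicate 3 alone, and without it the log2 fold change was 1.83 ± 1.8 (adjusted p = 0.46).

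Stromal and matrix markers were also higher. Of 19 members, 12 rose and none fell, with a median of 1.02. The sums were 2633, 1890 and 2658 CPM in the 3 DPA libraries, against 974.2, 1043 and 1152 CPM in the 1 DPA libraries. The CTRL sums, at 2874, 2179 and 896.4 CPM, spanned the 3 DPA values. Thy1, a surface protein of fibroblasts, had 32.4, 28.7 and 35.8 CPM at 3 DPA, against 13.9, 17.5 and 16.4 CPM at 1 DPA. The groups did not overlap (log2 fold change 1.02 ± 0.17, adjusted p = 0.000631). Col1a1, the fibrillar collagen of scar tissue, had 441, 214 and 346 CPM at 3 DPA, against 78.1, 92.7 and 111 CPM at 1 DPA (log2 fold change 1.83 ± 0.55, adjusted p = 0.023). Postn, a matrix protein secreted by activated fibroblasts, had 85, 75.6 and 89.5 CPM at 3 DPA, against 24, 29.6 and 28.9 CPM at 1 DPA (log2 fold change 1.6 ± 0.42, adjusted p = 0.0131). Lox, which crosslinks collagen, had 16.3, 5.88 and 6.45 CPM at 3 DPA and 1.38, 2.03 and 2.76 CPM at 1 DPA (log2 fold change 2.22 ± 0.68, adjusted p = 0.0241). Rgs5, a pericyte marker, had 191, 188 and 204 CPM at 3 DPA, against 152, 143 and 143 CPM at 1 DPA (log2 fold change 0.41 ± 0.10, adjusted p = 0.0059). Cspg4, also found on pericytes, had 15.9, 14 and 14.3 CPM at 3 DPA and 10.8, 9.79 and 8.59 CPM at 1 DPA (log2 fold change 0.60 ± 0.15, adjusted p = 0.00627). Pdgfrb, a receptor of pericytes and fibroblasts, rose and Des, a filament gene of contractile cells, was not called (log2 fold changes 0.70 ± 0.20 and 0.58 ± 0.51). The contractile genes Acta2 and Tagln had log2 fold changes of 0.83 ± 0.82 and 0.56 ± 0.76 and were not called (adjusted p = 0.435 and 0.574). The 12 stromal calls became 5 and 5 without 1 DPA replicates 1 and 2, and 5 and 6 without 3 DPA replicates 1 and 3.

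Endothelial markers rose in 9 of 14 cases with a median of 0.40, and none fell. Their sums were 1235, 1164 and 1235 CPM at 3 DPA and 947, 921.9 and 873.3 CPM at 1 DPA. Kdr, the main receptor of vascular endothelial growth factor, had 169.6, 174 and 182 CPM at 3 DPA, against 130.5, 134 and 102 CPM at 1 DPA. The groups were apart (log2 fold change 0.52 ± 0.10, adjusted p = 0.0012). Esm1, a proteoglycan of sprouting endothelium, had 46.8, 46.1 and 48.1 CPM at 3 DPA and 32.5, 30.3 and 24 CPM at 1 DPA (log2 fold change 0.70 ± 0.14, adjusted p = 0.00215). Flt1, a decoy receptor for the same growth factor, had 124, 117 and 131 CPM at 3 DPA and 88.9, 101 and 85.3 CPM at 1 DPA (log2 fold change 0.43 ± 0.09, adjusted p = 0.0016). Vegfa, the ligand itself, had 364, 427 and 374 CPM at 3 DPA and 454, 449 and 369 CPM at 1 DPA and was not called (log2 fold change -0.13 ± 0.12, adjusted p = 0.427).

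Among 8 Schwann cell markers 3 were called higher. Ngfr, the low-affinity neurotrophin receptor of immature and repair Schwann cells, had 37.1, 28.2 and 29.4 CPM at 3 DPA, against 8.78, 10.2 and 12.1 CPM at 1 DPA. The groups were well apart (log2 fold change 1.61 ± 0.22, adjusted p = 0.000172). Gfap, an intermediate filament protein of glia, had 8.08, 7.13 and 7.44 CPM at 3 DPA and 4.16, 4.38 and 5.04 CPM at 1 DPA (log2 fold change 0.74 ± 0.25, adjusted p = 0.0314). Its call was lost with limma-voom (adjusted p = 0.0795) and when any of the 3 DPA libraries, or 1 DPA replicate 1 or 2, was left out (adjusted p between 0.053 and 0.0943).

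Duct markers gave 7 calls of 12, all higher, with sums of 1978, 987 and 1158 CPM at 3 DPA and 836, 766 and 740 CPM at 1 DPA. Epcam, an epithelial adhesion protein, had 152, 129 and 147 CPM at 3 DPA, against 95.5, 95.7 and 90.6 CPM at 1 DPA (log2 fold change 0.60 ± 0.07, adjusted p = 4.07e-05). Sox9, a transcription factor of duct and progenitor cells, had 12.9, 8.54 and 12.7 CPM at 3 DPA and 3.63, 5.57 and 4.6 CPM at 1 DPA (log2 fold change 1.31 ± 0.25, adjusted p = 0.00133). Clu, a secreted chaperone, had 1159, 374 and 495 CPM at 3 DPA, against 219.7, 228 and 234 CPM at 1 DPA (log2 fold change 1.57 ± 0.40, adjusted p = 0.0111), with 3 DPA replicate 1 well above the other libraries. Without that library its log2 fold change was 0.95 ± 0.26 (adjusted p = 0.0198), and the 7 duct calls became 5. Of 6 REG genes tested, secreted lectins induced in injured acinar cells, 1 was called, and their sums were 312.4, 71.5 and 22.9 CPM at 3 DPA and 195.4, 92.8 and 42.5 CPM at 1 DPA. Reg3b had 75.4, 0.17 and 0.0207 CPM at 3 DPA, against 0.138, 0.106 and 0.951 CPM at 1 DPA and was not called (log2 fold change 6.04 ± 2.5, adjusted p = 0.0776). Its high value belonged to 3 DPA replicate 1 alone, and without that library its log2 fold change was -2.1 ± 1.77 (adjusted p = 0.37). Reg3g had 9.14, 0.17 and 0 CPM at 3 DPA and 0, 0.0264 and 0.0634 CPM at 1 DPA, a call (log2 fold change 6.63 ± 2.33, adjusted p = 0.0423) that was lost without the same library (1.35 ± 1.87, adjusted p = 0.592) and under most other settings. Of 19 acinar markers 1 was called. The digestive enzyme gene Cela2a had 1227, 2053 and 698 CPM at 3 DPA, against 8347, 4002 and 810 CPM at 1 DPA and was not called (log2 fold change -1.73 ± 0.93, adjusted p = 0.158). Both groups spread widely.

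**Figure D1:**
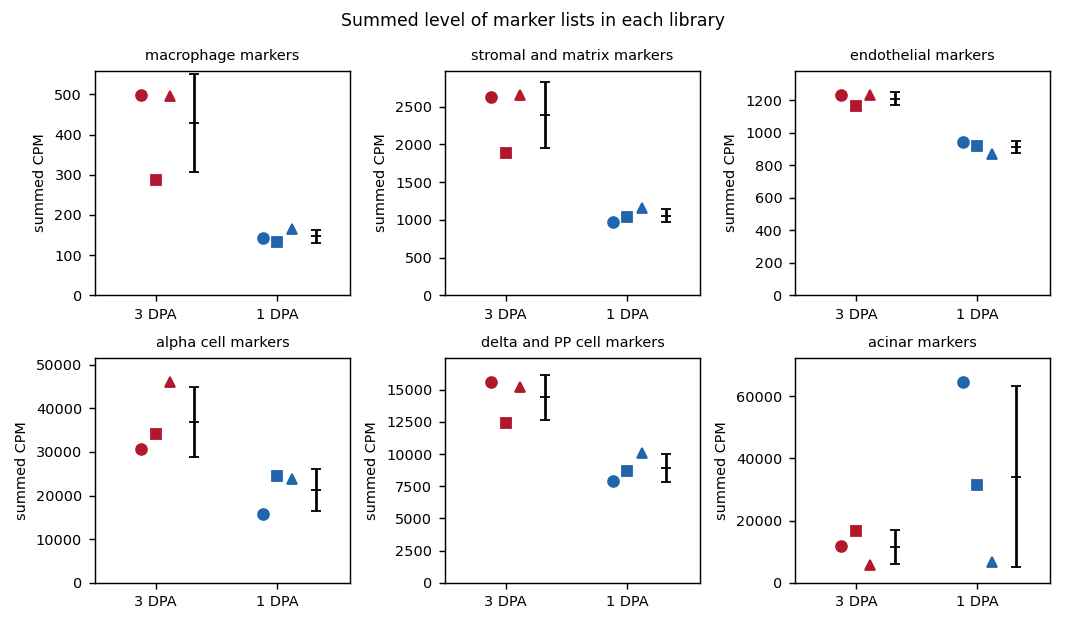
Summed CPM of the marker lists of macrophage, stromal, endothelial, alpha, delta and PP, and acinar cells in each library, 3 DPA left of 1 DPA. Points are libraries and black marks are the mean ± SD of 3. All 3 DPA points lie above all 1 DPA points for macrophage (287.4 to 498.9 against 134.1 to 164.7 CPM), stromal and endothelial markers, and the groups overlap for acinar markers.

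The early response transcription factors, which cells switch on within minutes of a stimulus and clear quickly, summed to 18420, 9810 and 13290 CPM in the 3 DPA libraries, against 4893, 4978 and 4171 CPM in the 1 DPA libraries. Of 29 members 13 rose, 3 fell and 13 were not called, with a median of 0.80, and every 3 DPA library lay above every 1 DPA library for 19 of them. The rise was led by Egr4, a zinc finger factor (chr6:85511121-85513589, minus strand), which had 1255, 466 and 657 CPM at 3 DPA, against 19.3, 24.6 and 21.9 CPM at 1 DPA. It was 36.2-fold higher at 3 DPA with no overlap (log2 fold change 5.18 ± 0.36, adjusted p = 6.12e-06). Egr1, the most abundant member of that family, had 8099, 4199 and 5361 CPM at 3 DPA, against 469, 604 and 468 CPM at 1 DPA (log2 fold change 3.52 ± 0.41, adjusted p = 0.000107). Egr2 had 104, 42.3 and 63.1 CPM at 3 DPA and 16.1, 16.2 and 16.2 CPM at 1 DPA (log2 fold change 2.12 ± 0.49, adjusted p = 0.00686). Egr3 had 7.38, 3.0 and 4.79 CPM at 3 DPA and 0.936, 0.633 and 1.17 CPM at 1 DPA (log2 fold change 2.47 ± 0.78, adjusted p = 0.0246). Values were highest in 3 DPA replicate 1 for all 4. Without that library the 13 became 10 and the list median 0.64, and the call of Egr3 was lost (2.11 ± 0.88, adjusted p = 0.0861), whereas Egr4, Egr1 and Egr2 stayed called.

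AP-1 factors split by member. Jun had 1521, 838 and 1095 CPM at 3 DPA, against 294, 289 and 262 CPM at 1 DPA and rose (log2 fold change 2.03 ± 0.22, adjusted p = 5.26e-05). Jund, its constitutive relative, had 1161, 679 and 1081 CPM at 3 DPA and 410.1, 367 and 314 CPM at 1 DPA (log2 fold change 1.42 ± 0.17, adjusted p = 7.10e-05). Atf3, which pairs with Jun under stress, had 283, 123 and 169 CPM at 3 DPA and 21.2, 22.5 and 12.6 CPM at 1 DPA (log2 fold change 3.35 ± 0.72, adjusted p = 0.00515). Fosl2 had 72.4, 57.1 and 92.4 CPM at 3 DPA, against 562, 562 and 352 CPM at 1 DPA, lower in all 3 DPA libraries (log2 fold change -2.73 ± 0.37, adjusted p = 0.000314). Fos and Fosb lay higher in all 3 DPA libraries without passing the test. Fos had 265, 205 and 287 CPM at 3 DPA and 161, 188 and 159 CPM at 1 DPA (log2 fold change 0.57 ± 0.35, adjusted p = 0.2). Fosb had 635, 353 and 563 CPM at 3 DPA and 138, 189.9 and 108 CPM at 1 DPA (log2 fold change 1.83 ± 0.75, adjusted p = 0.0744). Fosl1, another Fos family member, was not called (log2 fold change 0.48 ± 0.29, adjusted p = 0.191).

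The NR4A orphan receptors were not called. Nr4a1 had 1847, 1070 and 1476 CPM at 3 DPA, against 1084, 1060 and 699 CPM at 1 DPA (log2 fold change 0.63 ± 0.36, adjusted p = 0.182). The groups overlapped. Klf10, a repressor induced by transforming growth factor beta, had 58.3, 35.2 and 38.9 CPM at 3 DPA, against 128, 113 and 244 CPM at 1 DPA and fell (log2 fold change -1.87 ± 0.29, adjusted p = 0.0006). Srf, the factor that binds the CArG box of many early genes, had 69.7, 65 and 73.9 CPM at 3 DPA and 95.4, 85.5 and 97.4 CPM at 1 DPA and also fell, by a small amount (log2 fold change -0.42 ± 0.07, adjusted p = 0.00055). Arc, an early gene of synapses, had 13.3, 9.11 and 22 CPM at 3 DPA and 2.15, 1.77 and 1.78 CPM at 1 DPA (log2 fold change 2.96 ± 0.60, adjusted p = 0.00299). Npas4, which follows calcium entry in neurons and beta cells, had 22.1, 12.5 and 25.1 CPM at 3 DPA and 7.71, 6.41 and 4.98 CPM at 1 DPA (log2 fold change 1.64 ± 0.33, adjusted p = 0.00207).

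**Figure D2:**
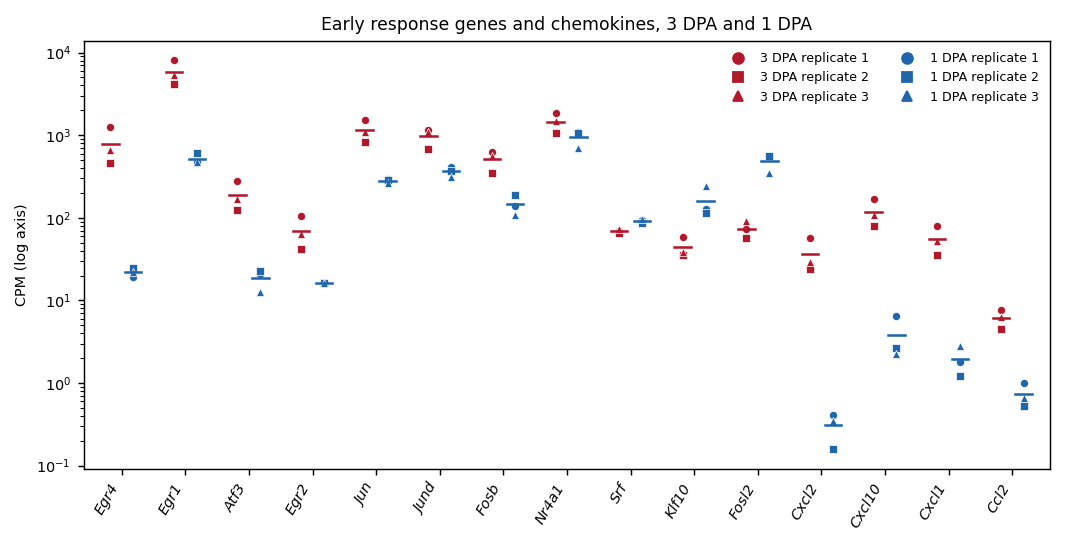
CPM (log axis) of 11 early response genes and 4 chemokine genes in each library, 3 DPA in red left of 1 DPA in blue. Circles, squares and triangles are replicates 1, 2 and 3 and bars are means. Egr4 and Cxcl2 show the widest gaps, Fosl2 and Klf10 lie lower at 3 DPA, and Nr4a1 overlaps.

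The Egr2 promoter is shown because, among early genes with a promoter sequence, it was the gene called higher whose window held a CArG box. Serum response factor binds this site (CC, a run of A or T, then GG). The 200 bases before the gene start are from RefSeq (GRCm38.p6, chr10:67537366-67537565, plus strand), with the box in capitals:
Egr2: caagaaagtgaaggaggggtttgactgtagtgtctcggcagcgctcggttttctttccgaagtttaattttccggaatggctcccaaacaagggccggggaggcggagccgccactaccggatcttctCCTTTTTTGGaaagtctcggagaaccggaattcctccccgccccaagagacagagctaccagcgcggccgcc
A CArG box was found, on either strand, in 3 of 22 early gene promoters (13.6%: Egr2, Zfp36 and Srf) and in 191 of 12606 promoters of all genes tested (1.52%). The other early genes of the list, among them Egr1, Egr3, Arc and Klf10, had no promoter sequence to search. The searched window ran from 250 bases before to 50 after the start. Egr2 rose, Srf fell and Zfp36 was not called (log2 fold change 1.05 ± 0.39, adjusted p = 0.054), so the members found with the box did not share a direction.

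Inhibitors that damp MAP kinase signalling were mostly not called, with 1 of 14 higher and 3 lower. Spred2, which blocks activation of Raf, had 46, 42.2 and 47.2 CPM at 3 DPA, against 62.1, 61.8 and 67.9 CPM at 1 DPA and fell (log2 fold change -0.50 ± 0.07, adjusted p = 0.000117). Dusp1, a nuclear phosphatase, had 120.2, 107 and 116 CPM at 3 DPA and 80.4, 68.5 and 74.8 CPM at 1 DPA (log2 fold change 0.62 ± 0.23, adjusted p = 0.0507). Dusp8 had 712, 405 and 408 CPM at 3 DPA and 538, 556 and 601 CPM at 1 DPA, with overlapping groups (log2 fold change -0.15 ± 0.23, adjusted p = 0.617). The count of 3 lower became 1 when 1 DPA replicate 1, 3 DPA replicate 1 or 3 DPA replicate 2 was left out, or with library sizes that leave out the 50 most abundant genes.

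Genes that respond to cAMP and calcium went both ways, with 2 of 14 higher and 6 lower (median -0.26). Pde10a, a phosphodiesterase that degrades cyclic nucleotides (chr17:8525372-8986648, plus strand), had 94.8, 87.8 and 81.7 CPM at 3 DPA, against 465, 450.3 and 469 CPM at 1 DPA. It was 5.24-fold lower at 3 DPA, and the groups did not overlap (log2 fold change -2.39 ± 0.11, adjusted p = 2.96e-07). Ppargc1a, a coactivator of mitochondrial genes, had 2.58, 3.37 and 2.15 CPM at 3 DPA and 16.9, 19 and 9.07 CPM at 1 DPA (log2 fold change -2.48 ± 0.27, adjusted p = 2.56e-05). Sik1, a kinase induced by cAMP, had 39.1, 49.3 and 48.2 CPM at 3 DPA, against 125, 129 and 109.8 CPM at 1 DPA (log2 fold change -1.41 ± 0.22, adjusted p = 0.000596). Crem, which encodes a cAMP-induced repressor, had 76.8, 56.4 and 67.5 CPM at 3 DPA and 154, 159 and 109.5 CPM at 1 DPA (log2 fold change -1.07 ± 0.17, adjusted p = 0.000577). The members that rose were Vgf and Rcan1. Vgf, a granule peptide precursor, had 490.4, 254 and 417 CPM at 3 DPA, against 83.8, 71.2 and 54.5 CPM at 1 DPA (log2 fold change 2.47 ± 0.27, adjusted p = 6.75e-05). Rcan1, an inhibitor of calcineurin, had 284, 125 and 223 CPM at 3 DPA and 98.9, 82.3 and 78 CPM at 1 DPA (log2 fold change 1.29 ± 0.24, adjusted p = 0.00191).

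Chemokines and cytokines rose in 10 of 20 cases and fell in none, with a median of 2.87. Cxcl2, a neutrophil attractant (chr5:90903871-90905938, plus strand), had 57.2, 23.9 and 29.6 CPM at 3 DPA, against 0.413, 0.158 and 0.349 CPM at 1 DPA. This was the highest fold change that the naming rule returned, 120.5-fold (log2 fold change 6.91 ± 0.78, adjusted p = 0.000102). Cxcl1, a close relative (chr5:90891241-90893115, plus strand), had 79.1, 35.9 and 51.8 CPM at 3 DPA, against 1.79, 1.21 and 2.79 CPM at 1 DPA (log2 fold change 4.86 ± 0.67, adjusted p = 0.000353). Cxcl10, an interferon-induced attractant of T cells (chr5:92346638-92348889, minus strand), had 168, 79.3 and 109.6 CPM at 3 DPA, against 6.44, 2.69 and 2.22 CPM at 1 DPA (log2 fold change 4.96 ± 0.72, adjusted p = 0.000551). In all 3 genes replicate 1 was the highest 3 DPA library, the calls held without it (adjusted p up to 0.00203), and no 3 DPA value came near the 1 DPA range.

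Ccl2, which attracts monocytes, had 7.6, 4.55 and 6.36 CPM at 3 DPA, against 0.991, 0.528 and 0.666 CPM at 1 DPA (log2 fold change 3.08 ± 0.59, adjusted p = 0.00175). Il1rn, the antagonist of interleukin 1, had 8.08, 3.0 and 3.82 CPM at 3 DPA and 0.22, 0.607 and 0.222 CPM at 1 DPA (log2 fold change 3.8 ± 0.94, adjusted p = 0.00845). Tnf had 1.42, 0.537 and 1.24 CPM at 3 DPA and 0.0275, 0.29 and 0.0951 CPM at 1 DPA, near the limit of measurement (log2 fold change 2.91 ± 1.04, adjusted p = 0.0419). Cx3cl1, the ligand of Cx3cr1, had 30.2, 27.9 and 31 CPM at 3 DPA and 17.7, 20.8 and 19.3 CPM at 1 DPA (log2 fold change 0.62 ± 0.13, adjusted p = 0.00239). Ccl5 had 2.86, 2.12 and 30.6 CPM at 3 DPA, against 0.22, 0.237 and 0.0634 CPM at 1 DPA, highest in 3 DPA replicate 3, and was not called (log2 fold change 6.04 ± 2.55, adjusted p = 0.0826). Without that library its log2 fold change was 3.78 ± 2.65 (adjusted p = 0.302). Chemokine sums were 499, 295 and 515 CPM at 3 DPA and 122, 124 and 138 CPM at 1 DPA. Replicate 2 of 3 DPA had the lowest 3 DPA sum for both this list and the macrophage markers. The part of macrophage content in the chemokine result was not tested.

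Promoters of Cxcl1, Cxcl2 and Cxcl10, the called chemokine genes with the highest fold changes, are shown because all held the letters of an NF-kB site (its core consensus, on either strand). Sequences are the 200 bases before the gene start from RefSeq (GRCm38.p6: Cxcl1 chr5:90891045-90891244, plus strand; Cxcl2 chr5:90903699-90903898, plus strand; Cxcl10 chr5:92348890-92349089, minus strand), with the sites in capitals and overlapping sites run together:
Cxcl1: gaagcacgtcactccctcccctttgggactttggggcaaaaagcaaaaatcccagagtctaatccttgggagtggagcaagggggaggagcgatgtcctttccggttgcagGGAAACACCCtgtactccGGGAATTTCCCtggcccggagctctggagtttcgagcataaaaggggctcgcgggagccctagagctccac
Cxcl2: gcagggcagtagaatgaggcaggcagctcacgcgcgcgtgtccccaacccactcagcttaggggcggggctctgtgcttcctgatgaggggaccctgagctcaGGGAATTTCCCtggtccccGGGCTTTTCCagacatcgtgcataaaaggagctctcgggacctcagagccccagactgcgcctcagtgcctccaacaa
Cxcl10: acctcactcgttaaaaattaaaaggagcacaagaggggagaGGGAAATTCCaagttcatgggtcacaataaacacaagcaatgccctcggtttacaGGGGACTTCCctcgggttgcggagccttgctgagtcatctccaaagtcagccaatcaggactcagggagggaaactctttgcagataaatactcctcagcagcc
These letters were found in 6 of 14 chemokine and cytokine promoters (42.9%) and in 911 of 12606 promoters of all genes tested (7.23%). Over all called genes the share hardly differed by direction, at 7.29% of those called higher and 6.97% of those called lower. Of the 6 genes, Cxcl1, Cxcl2, Cxcl10 and Il1rn rose and Il6 and Csf1 were not called. A match is a description of the letters and not a bound site.

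The NF-kB subunits and feedback inhibitors themselves did not move with the chemokines. None of 18 was called higher by edgeR (2 were by DESeq2) and 9 were called lower, with a median of -0.52. Tnip1, a ubiquitin-binding inhibitor of the pathway, had 54.1, 49.5 and 52.4 CPM at 3 DPA, against 126, 99.2 and 129 CPM at 1 DPA. It was lower in all 3 DPA libraries (log2 fold change -1.18 ± 0.10, adjusted p = 6.12e-06). Nfkbib, an inhibitor that holds NF-kB in the cytoplasm, had 38.5, 28.4 and 30.4 CPM at 3 DPA and 63.2, 54.8 and 68.1 CPM at 1 DPA (log2 fold change -0.93 ± 0.14, adjusted p = 0.000284). Nfkb1, the p50 subunit precursor, had 76, 70.2 and 77.7 CPM at 3 DPA and 119.7, 101 and 105 CPM at 1 DPA (log2 fold change -0.54 ± 0.10, adjusted p = 0.000861). Bcl3, a nuclear partner of p50 and p52, had 12.3, 9.22 and 13.8 CPM at 3 DPA, against 45, 34.8 and 59.2 CPM at 1 DPA (log2 fold change -1.97 ± 0.37, adjusted p = 0.00196). Birc3, an inhibitor of apoptosis and a classical target, had 33.3, 24.6 and 29 CPM at 3 DPA and 88.5, 84.8 and 113 CPM at 1 DPA (log2 fold change -1.72 ± 0.32, adjusted p = 0.00201). Tnfaip3, the deubiquitinase that ends the signal, had 59.5, 39.6 and 56.4 CPM at 3 DPA and 116, 139.6 and 124 CPM at 1 DPA (log2 fold change -1.29 ± 0.41, adjusted p = 0.0305). Nfkbia had 200, 126 and 158 CPM at 3 DPA, against 196, 163 and 251 CPM at 1 DPA, with overlapping groups and no call (log2 fold change -0.33 ± 0.27, adjusted p = 0.335). The adhesion gene Vcam1 and the adaptor Traf1 lay higher in all 3 DPA libraries but were not called (log2 fold changes 1.91 ± 0.73 and 2.89 ± 1.5, adjusted p = 0.0593 and 0.148). Without 3 DPA replicate 3 the value of Traf1 was 1.87 ± 1.59 (adjusted p = 0.393).

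Of 18 interferon response genes 4 rose (22.2%, near the 20.4% of all genes) and none fell, with a median of 1.00. Ifit1, an inhibitor of translation of foreign RNA, had 19.7, 18.7 and 20.8 CPM at 3 DPA, against 7.19, 6.81 and 8.69 CPM at 1 DPA (log2 fold change 1.39 ± 0.32, adjusted p = 0.00542). Oasl2 had 38.9, 25.6 and 31.5 CPM at 3 DPA and 14, 13.2 and 14.6 CPM at 1 DPA (log2 fold change 1.2 ± 0.31, adjusted p = 0.0109). Irf7, Isg15 and Mx1 lay higher in every 3 DPA library without a call (log2 fold changes 1.49 ± 0.82, 1.65 ± 0.68 and 2.2 ± 0.86). The count depended on the libraries in the fit. It was 13 with only the 6 libraries of 3 DPA and 1 DPA, 8 with DESeq2, 7 without CTRL replicate 1 and 10 without CTRL replicate 3. Macrophage sums, given above, moved with this list, and their part was not tested.

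The circadian clock genes were lower at 3 DPA where they differed. Of 19 members 12 fell and none rose, with a median of -0.78. Arntl, the activator at the core of the clock (chr7:113207465-113314126, plus strand), had 31.8, 28.3 and 28.6 CPM at 3 DPA, against 80.8, 75.1 and 97.4 CPM at 1 DPA. Its groups were far apart (log2 fold change -1.51 ± 0.11, adjusted p = 2.19e-06). Nfil3, a repressor that opposes the PAR bZIP factors, had 56.4, 41.5 and 58.4 CPM at 3 DPA, against 207, 198 and 253 CPM at 1 DPA (log2 fold change -2.07 ± 0.16, adjusted p = 6.09e-06). Per2, a repressor of the core activators, had 51.6, 50.3 and 41.9 CPM at 3 DPA, against 129.9, 135 and 206 CPM at 1 DPA (log2 fold change -1.71 ± 0.20, adjusted p = 6.66e-05). Per3 had 25.6, 30.0 and 21.6 CPM at 3 DPA and 55.4, 57 and 77.6 CPM at 1 DPA (log2 fold change -1.3 ± 0.23, adjusted p = 0.00105). Cry2, partner of the Period proteins, had 315, 201 and 212 CPM at 3 DPA and 458, 443 and 803 CPM at 1 DPA (log2 fold change -1.23 ± 0.24, adjusted p = 0.00249).

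As background, Arntl and the Period genes normally peak at different times of day. The 7 members not called were Nr1d1, Nr1d2, Per1, Dbp, Hlf, Bhlhe40 and Ciart. Nr1d1, the REV-ERB alpha receptor, had 2762, 1270 and 1673 CPM at 3 DPA, against 1881, 1595 and 4390 CPM at 1 DPA (log2 fold change -0.46 ± 0.43, adjusted p = 0.397). Dbp, a PAR bZIP factor, had 577, 331 and 348 CPM at 3 DPA, against 369.5, 307 and 858 CPM at 1 DPA (log2 fold change -0.29 ± 0.42, adjusted p = 0.595). In both, 1 DPA replicate 3 was the highest of the 6 libraries and 1 DPA replicates 1 and 2 lay within or near the 3 DPA range. Ciart, a repressor of the same output loop, had 482, 175 and 250.5 CPM at 3 DPA, against 63, 54.6 and 375 CPM at 1 DPA with the same library high within its group (log2 fold change 0.89 ± 0.71, adjusted p = 0.334). Without 1 DPA replicate 3 the 12 clock calls became 8, and Ciart was called higher (2.38 ± 0.43, adjusted p = 0.00309). Nr1d1 and Dbp, still not called, then had log2 fold changes of 0.15 ± 0.35 and 0.33 ± 0.34. The labels give no hour of collection, so time of day and time after toxin cannot be told apart for these genes.

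**Figure D3:**
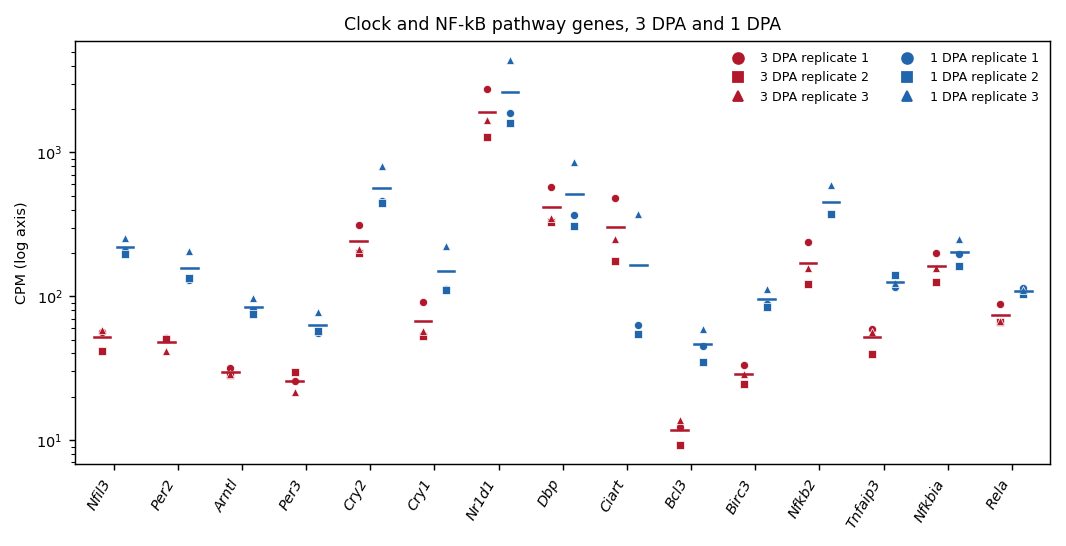
CPM (log axis) of 9 clock genes and 6 genes of the NF-kB pathway in each library, 3 DPA in red left of 1 DPA in blue. Symbols are replicates and bars are means. Nfil3, Per2 and Arntl are lower in every 3 DPA library, and the triangle of 1 DPA replicate 3 is the highest for Nr1d1 and Dbp.

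Chaperones of the endoplasmic reticulum, where insulin and other secreted proteins fold, were among the most uniform changes. Of 22 members 16 rose and none fell, with a median of 0.78, and 17 had every 3 DPA library above every 1 DPA library. Their sums were 7664, 8474 and 8166 CPM at 3 DPA and 4836, 5310 and 4244 CPM at 1 DPA. Hspa5, the major chaperone of the compartment, known as BiP, had 1355, 1495 and 1431 CPM at 3 DPA, against 713, 837 and 646 CPM at 1 DPA. The groups were separate and the spread was small (log2 fold change 0.96 ± 0.10, adjusted p = 2.50e-05). Pdia6, a disulfide isomerase, had 394, 446 and 446 CPM at 3 DPA, against 225, 239 and 177 CPM at 1 DPA (log2 fold change 1.01 ± 0.11, adjusted p = 2.25e-05). Sdf2l1, a cofactor of Hspa5, had 97.2, 110.3 and 114 CPM at 3 DPA and 45.7, 48 and 33.7 CPM at 1 DPA (log2 fold change 1.34 ± 0.14, adjusted p = 2.19e-05). Manf, a secreted stress protein, had 204, 199.7 and 198 CPM at 3 DPA and 98.5, 114 and 88.7 CPM at 1 DPA (log2 fold change 1.00 ± 0.09, adjusted p = 8.09e-06). Pdia3 had 840.1, 889.8 and 912 CPM at 3 DPA and 496, 539 and 479 CPM at 1 DPA (log2 fold change 0.80 ± 0.06, adjusted p = 3.37e-06).

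The 6 members not called were Ern1, Herpud1, Sel1l, Syvn1, Edem1 and Derl3. Ern1, the sensor that splices Xbp1 RNA, had 192, 202 and 192 CPM at 3 DPA, against 204, 217 and 181 CPM at 1 DPA (log2 fold change -0.04 ± 0.09, adjusted p = 0.745). Herpud1, a component of the degradation complex, had 140.1, 149 and 139.8 CPM at 3 DPA and 139, 150.5 and 143 CPM at 1 DPA (log2 fold change -0.01 ± 0.07, adjusted p = 0.889). Sel1l had 120.5, 138 and 114 CPM at 3 DPA and 129.5, 124 and 95.3 CPM at 1 DPA (log2 fold change 0.09 ± 0.13, adjusted p = 0.567). Syvn1, Edem1 and Derl3, which act in degradation, had log2 fold changes of 0.21 ± 0.11, 0.27 ± 0.13 and 0.48 ± 0.31. Xbp1, the transcription factor, rose (0.55 ± 0.09, adjusted p = 0.000491). Atf6 rose slightly (0.22 ± 0.07, adjusted p = 0.0193). The count of 16 stayed between 15 and 18 under every other setting and without any library.

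Promoters of 4 of these chaperones are shown because they hold the ER stress response element, on either strand, which ATF6 and XBP1 bind together with NF-Y. The 200 bases before the gene start are from RefSeq (GRCm38.p6: Hspa5 chr2:34771890-34772089, plus strand; Hsp90b1 chr10:86705445-86705644, minus strand; Pdia6 chr12:17266389-17266588, plus strand; Creld2 chr15:88819446-88819645, plus strand), with the element in capitals:
Hspa5: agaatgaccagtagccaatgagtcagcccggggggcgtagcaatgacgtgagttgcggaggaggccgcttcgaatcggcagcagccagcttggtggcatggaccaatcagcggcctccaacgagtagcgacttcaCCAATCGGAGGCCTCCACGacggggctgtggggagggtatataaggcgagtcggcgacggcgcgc
Hsp90b1: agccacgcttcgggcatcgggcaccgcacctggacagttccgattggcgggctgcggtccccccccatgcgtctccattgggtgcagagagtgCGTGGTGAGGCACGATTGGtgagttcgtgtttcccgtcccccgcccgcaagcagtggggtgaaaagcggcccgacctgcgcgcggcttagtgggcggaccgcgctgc
Pdia6: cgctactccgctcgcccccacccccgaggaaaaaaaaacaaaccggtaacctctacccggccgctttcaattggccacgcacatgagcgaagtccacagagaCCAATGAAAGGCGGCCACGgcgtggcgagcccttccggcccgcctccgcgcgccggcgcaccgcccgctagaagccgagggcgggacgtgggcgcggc
Creld2: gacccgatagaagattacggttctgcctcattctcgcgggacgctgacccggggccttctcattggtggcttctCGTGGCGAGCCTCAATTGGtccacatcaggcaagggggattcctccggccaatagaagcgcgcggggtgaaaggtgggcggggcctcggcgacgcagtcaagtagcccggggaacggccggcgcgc
The element was found in 9 of 19 promoters of the list (47.4%) and in 21 of 12606 promoters of all genes tested (0.167%). Of the 9 genes, Hspa5, Hsp90b1, Calr, Canx, Pdia6, Dnajc3 and Creld2 rose, and Syvn1 and Derl3 were not called. In Hsp90b1 and Creld2 the element lay on the reverse strand.

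Genes of the integrated stress response, the ATF4 programme that follows stalled translation, did not rise with the chaperones. Of 20 members 1 rose and 5 fell (30% called, fewer than the 45.1% of all genes). Over all genes 24.7% were called lower, so the 5 falls do not set the list apart. The list median was -0.08 under TMM but 0.03 with library sizes that leave out the 50 most abundant genes. Atf4 had 256, 236 and 244 CPM at 3 DPA, against 371, 344 and 396 CPM at 1 DPA, with the groups apart (log2 fold change -0.59 ± 0.10, adjusted p = 0.000601). Cebpg, a dimer partner of Atf4, had 82.2, 72.7 and 76.5 CPM at 3 DPA, against 142, 139 and 166 CPM at 1 DPA (log2 fold change -0.95 ± 0.10, adjusted p = 1.83e-05). Ddit3, which encodes the stress factor CHOP, had 44, 28.7 and 36.5 CPM at 3 DPA and 50.3, 47.2 and 53.3 CPM at 1 DPA (log2 fold change -0.46 ± 0.13, adjusted p = 0.0109). The amino acid genes Asns, Psat1 and Phgdh were not called (log2 fold changes -0.22 ± 0.17, 0.12 ± 0.21 and -0.03 ± 0.52).

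Heat shock genes of the cytosol and mitochondria rose in 5 of 13 cases and fell in 1. Dnajb1, a cochaperone of the HSP70 proteins, had 74.3, 51.8 and 94.6 CPM at 3 DPA, against 27.1, 26.9 and 29.7 CPM at 1 DPA (log2 fold change 1.4 ± 0.35, adjusted p = 0.0103). Hspa8, the constitutive HSP70, had 573, 502 and 627 CPM at 3 DPA and 337, 367 and 362 CPM at 1 DPA (log2 fold change 0.68 ± 0.19, adjusted p = 0.0133), a call lost without 3 DPA replicate 3. The inducible copies Hspa1a and Hspa1b, whose sequences are nearly identical so that reads may be split between them, had log2 fold changes of -0.01 ± 0.16 and -0.01 ± 0.15. Hsf1, the factor that drives these genes, was the member that fell, with 34.4, 36.6 and 32.1 CPM at 3 DPA, against 61.3, 61.3 and 56.5 CPM at 1 DPA (log2 fold change -0.80 ± 0.08, adjusted p = 1.37e-05). The 5 calls became 3 without 1 DPA replicate 1 and 2 without 3 DPA replicate 3.

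Oxidative stress genes rose in 9 of 15 cases. Prdx1, a peroxide reductase, had 121, 117 and 122 CPM at 3 DPA, against 70.1, 73.5 and 69.3 CPM at 1 DPA (log2 fold change 0.75 ± 0.08, adjusted p = 3.40e-05). Sod1, the cytosolic superoxide dismutase, had 90.3, 90.6 and 94.1 CPM at 3 DPA and 71.3, 68.8 and 70.9 CPM at 1 DPA (log2 fold change 0.38 ± 0.05, adjusted p = 7.99e-05). Hmox1, which degrades heme, had 19.8, 14.1 and 17 CPM at 3 DPA and 4.68, 5.57 and 5.14 CPM at 1 DPA (log2 fold change 1.73 ± 0.35, adjusted p = 0.00259). Mt1, a metal-binding metallothionein, was the member that fell, with 76.2, 77.5 and 73.5 CPM at 3 DPA, against 163, 128 and 134 CPM at 1 DPA (log2 fold change -0.90 ± 0.11, adjusted p = 7.51e-05). Its neighbour Mt2 had 65.1, 58 and 64.8 CPM at 3 DPA and 80.4, 57.5 and 63.3 CPM at 1 DPA and was not called (log2 fold change -0.10 ± 0.17, adjusted p = 0.658).

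Targets of p53 split, with 8 of 23 higher and 3 lower. Cdkn1a, the p21 inhibitor of cyclin-dependent kinases, had 309.7, 176 and 371 CPM at 3 DPA, against 104, 93.5 and 87.1 CPM at 1 DPA. It was higher in all 3 DPA libraries (log2 fold change 1.59 ± 0.25, adjusted p = 0.000678). Aen, an apoptosis nuclease, had 88, 73.2 and 89.5 CPM at 3 DPA, against 173, 162 and 167 CPM at 1 DPA and fell (log2 fold change -1.0 ± 0.09, adjusted p = 6.12e-06). Plk3 had 53.8, 42.1 and 43.8 CPM at 3 DPA and 107, 101 and 93.6 CPM at 1 DPA and fell (log2 fold change -1.11 ± 0.17, adjusted p = 0.000357). Mdm2, the feedback inhibitor of p53, had 80.8, 77.9 and 88.7 CPM at 3 DPA, against 80.7, 85.8 and 81.3 CPM at 1 DPA, with overlapping groups (log2 fold change -0.00 ± 0.07, adjusted p = 0.977). The 8 calls became 5 when each 1 DPA library in turn, or 3 DPA replicate 1, was left out.

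The BCL2 family, which sets the threshold of mitochondrial apoptosis, gave 4 higher and 2 lower of 15. The survival factor Bcl2 had 14.8, 15.4 and 16.2 CPM at 3 DPA, against 8.23, 9.58 and 7.64 CPM at 1 DPA and rose (log2 fold change 0.87 ± 0.13, adjusted p = 0.000257). The killer Bbc3, known as PUMA, had 29.2, 22.3 and 26.3 CPM at 3 DPA, against 56.3, 47.1 and 61.6 CPM at 1 DPA and fell (log2 fold change -1.08 ± 0.14, adjusted p = 9.70e-05). Pmaip1, known as NOXA, had 5.31, 2.4 and 6.47 CPM at 3 DPA and 1.32, 0.713 and 1.3 CPM at 1 DPA (log2 fold change 2.1 ± 0.69, adjusted p = 0.0307). The pore former Bax had 179.7, 121 and 168 CPM at 3 DPA and 98.3, 93.9 and 125 CPM at 1 DPA (log2 fold change 0.57 ± 0.14, adjusted p = 0.00637). Bcl2l1 and Mcl1 were not called (log2 fold changes 0.17 ± 0.07 and -0.09 ± 0.14). The count of 4 became 7 with library sizes that leave out the 50 most abundant genes and with only the 6 libraries of both times.

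**Figure D4:**
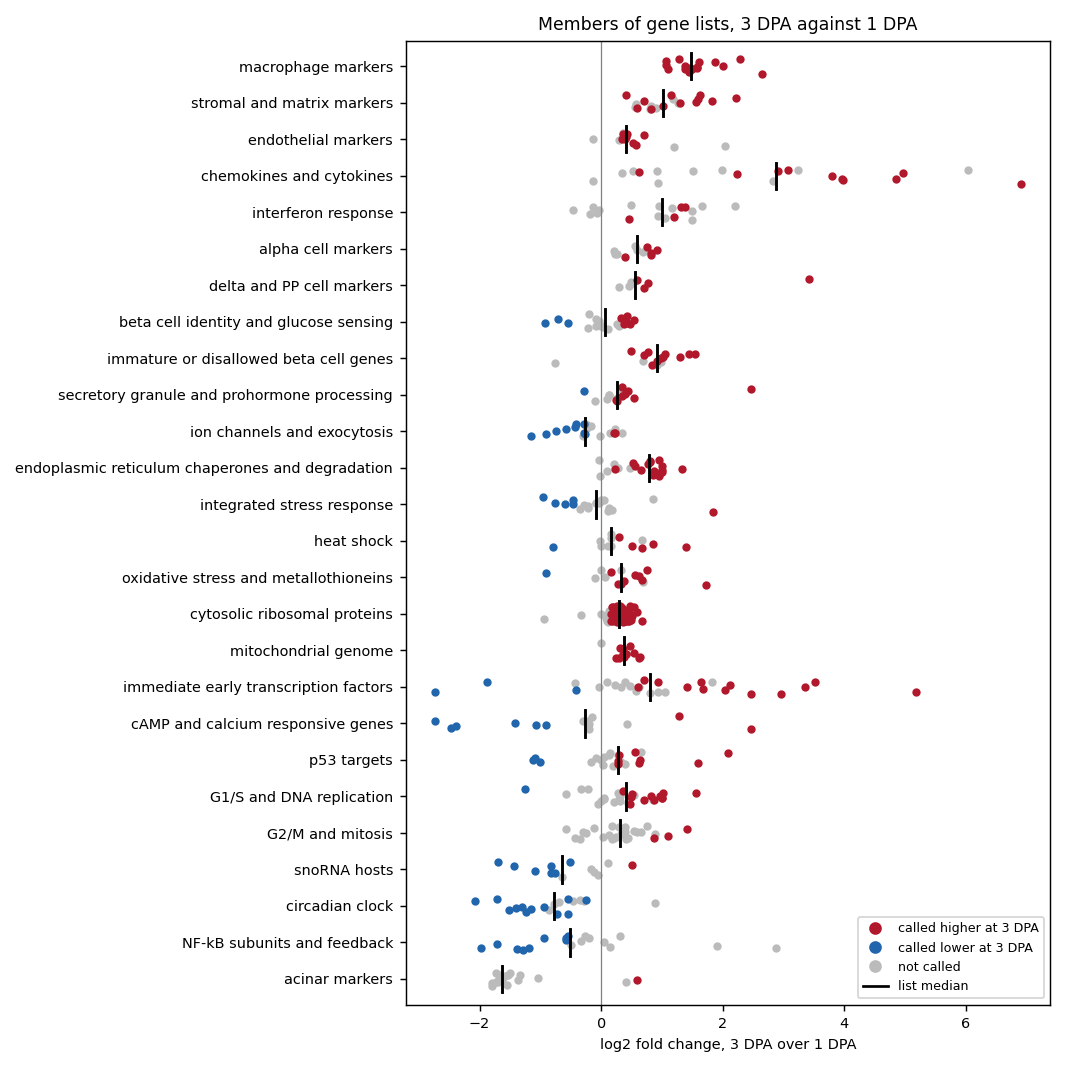
Log2 fold changes (3 DPA over 1 DPA) of the tested members of 26 gene lists, 1 point per gene. Red points were called higher, blue points lower and grey points not called, and black bars are list medians. All macrophage markers and most chaperones of the endoplasmic reticulum lie to the right of 0, most clock genes lie to the left, and ion channel and exocytosis genes lie mostly to the left.

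Hormone genes and beta cell identity genes were measured next. Ins1 had 33660, 41650 and 38740 CPM at 3 DPA, against 33480, 29020 and 19690 CPM at 1 DPA, a difference near the threshold (log2 fold change 0.47 ± 0.18, adjusted p = 0.048). The call was lost when several of the libraries were left out, with an adjusted p up to 0.137. Ins2 had 106900, 133900 and 126600 CPM at 3 DPA, against 119200, 102500 and 78860 CPM at 1 DPA and was not called (log2 fold change 0.29 ± 0.16, adjusted p = 0.166). Of 20 identity and glucose sensing genes 6 rose and 3 fell (median 0.07). Slc2a2, through which glucose enters mouse beta cells, had 709, 819 and 693 CPM at 3 DPA, against 577, 480.5 and 465 CPM at 1 DPA and rose (log2 fold change 0.54 ± 0.12, adjusted p = 0.0028). Gipr, the receptor of the incretin GIP, had 148, 191 and 124 CPM at 3 DPA and 269, 239 and 248 CPM at 1 DPA and fell (log2 fold change -0.71 ± 0.21, adjusted p = 0.0185). The transcription factors Pdx1, Mafa and Nkx6-1 overlapped between groups and were not called (log2 fold changes 0.00 ± 0.11, -0.21 ± 0.16 and -0.09 ± 0.12). Neurod1 had 157, 204 and 190.2 CPM at 3 DPA and 271, 295 and 239 CPM at 1 DPA and fell (log2 fold change -0.55 ± 0.12, adjusted p = 0.00412). The count of 6 became 3 without 1 DPA replicate 3, and 2 when 3 DPA replicate 2 or 3 was left out.

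Of the 15 genes listed for secretory granules and prohormone processing, 8 rose. They include Slc2a2, the glucose transporter already counted above among identity and glucose sensing genes. Apart from Vgf and Slc2a2, given above, the changes were small: Scg2, a granin, had 3248, 3480 and 3262 CPM at 3 DPA and 2733, 2717 and 2189 CPM at 1 DPA (log2 fold change 0.39 ± 0.10, adjusted p = 0.00711). Pcsk1n had 1852, 1893 and 2255 CPM at 3 DPA and 1476, 1549 and 1379 CPM at 1 DPA (log2 fold change 0.45 ± 0.11, adjusted p = 0.00602). The convertases Pcsk1 and Pcsk2 were not called (log2 fold changes 0.35 ± 0.17 and 0.13 ± 0.08). The member that fell was Ptprn, with 846, 906 and 939.5 CPM at 3 DPA, against 1118, 1105 and 1046 CPM at 1 DPA (log2 fold change -0.28 ± 0.09, adjusted p = 0.0192).

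Ion channel and exocytosis genes fell in 9 of 19 cases and rose in 2, a number that ran from 0 to 4 over the other settings and left-out libraries. Unc13a, which primes vesicles for release, had 130.1, 162 and 134 CPM at 3 DPA, against 285, 318 and 347 CPM at 1 DPA (log2 fold change -1.16 ± 0.10, adjusted p = 8.31e-06). The 3 DPA values lay far below the 1 DPA values. Rims2, a scaffold of the release site, had 24.2, 29.5 and 27.9 CPM at 3 DPA and 49, 50.4 and 53.3 CPM at 1 DPA (log2 fold change -0.90 ± 0.09, adjusted p = 1.36e-05). Syt7, a calcium sensor, had 319, 351 and 331 CPM at 3 DPA and 493, 509.6 and 499 CPM at 1 DPA (log2 fold change -0.58 ± 0.08, adjusted p = 0.000116). Snap25, a fusion protein, had 127, 146 and 118 CPM at 3 DPA and 218, 208 and 229.5 CPM at 1 DPA (log2 fold change -0.75 ± 0.10, adjusted p = 0.000127). Subunits of the ATP-sensitive potassium channel fell by less (Abcc8 -0.41 ± 0.12 and Kcnj11 -0.28 ± 0.10, adjusted p = 0.0159 and 0.0394). The count of 9 became 5 without 1 DPA replicate 3 and 5 with library sizes that leave out the 50 most abundant genes.

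Genes linked with immature beta cells, or normally kept low in mature ones, rose in 11 of 15 cases and fell in none (median 0.92). Their sums were 700.2, 625.8 and 843.6 CPM at 3 DPA and 329.8, 422.2 and 386.7 CPM at 1 DPA. The CTRL sums were 701.7, 613.3 and 472.2 CPM, overlapping those at 3 DPA and above those at 1 DPA. Npy, a peptide precursor of immature beta cells, had 51.5, 73.1 and 66.3 CPM at 3 DPA, against 23.5, 23 and 23.5 CPM at 1 DPA (log2 fold change 1.45 ± 0.19, adjusted p = 0.000138). Hk1, a high-affinity hexokinase, had 40.5, 35.5 and 36.5 CPM at 3 DPA, against 15.2, 21.1 and 20.6 CPM at 1 DPA (log2 fold change 0.98 ± 0.14, adjusted p = 0.000205). Ldha, which makes lactate, had 44.4, 30.9 and 36.4 CPM at 3 DPA and 18.6, 18.3 and 18.2 CPM at 1 DPA (log2 fold change 1.02 ± 0.24, adjusted p = 0.00642). Slc16a1, a monocarboxylate transporter, had 4.38, 2.69 and 3.66 CPM at 3 DPA and 1.16, 1.14 and 2.09 CPM at 1 DPA (log2 fold change 1.3 ± 0.31, adjusted p = 0.00519). Several of these genes are also expressed by stromal, endothelial and alpha cells, whose marker sums were higher at 3 DPA, and the part of those cells was not tested. The count became 7 without 1 DPA replicate 1.

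Of the hormone genes of other islet cells, Gcg and Sst rose, and Ppy and Pyy were not called (log2 fold changes 0.49 ± 0.37 and 0.53 ± 0.23, adjusted p = 0.293 and 0.0885). Gcg, which encodes glucagon of alpha cells, had 29190, 32540 and 44270 CPM at 3 DPA, against 14610, 23100 and 22570 CPM at 1 DPA. The groups did not overlap (log2 fold change 0.81 ± 0.24, adjusted p = 0.017), but the call ended without 1 DPA replicate 1 (adjusted p = 0.0601) and without 3 DPA replicate 3 (adjusted p = 0.0704). Sst, the somatostatin of delta cells, had 10200, 8630 and 11420 CPM at 3 DPA, against 5054, 5865 and 6728 CPM at 1 DPA (log2 fold change 0.78 ± 0.14, adjusted p = 0.000834). Hhex, a delta cell transcription factor, had 46.9, 37.1 and 44.8 CPM at 3 DPA and 22.6, 30.2 and 32.5 CPM at 1 DPA (log2 fold change 0.60 ± 0.12, adjusted p = 0.00231). Of 11 alpha markers 5 rose (45.5% called, near the 45.1% of all genes). The count of 5 was 2, 3 and 3 without 1 DPA replicates 1, 2 and 3, and 1 without 3 DPA replicate 3. It was 8 without 5 DPA replicate 1, 8 with DESeq2 and 9 with only the 6 libraries of both times. Delta and PP markers rose in 4 of 8 cases, with sums of 15600, 12390 and 15210 CPM at 3 DPA and 7941, 8668 and 10070 CPM at 1 DPA. Aqp3, a water and glycerol channel in that list, had 4.38, 2.18 and 2.93 CPM at 3 DPA, against 0.0826, 0.132 and 0.698 CPM at 1 DPA (log2 fold change 3.41 ± 0.74, adjusted p = 0.00347).

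DNA replication genes rose in 12 of 28 cases and fell in 1, with a median of 0.40. The share called, 46.4%, was near the 45.1% of all genes, of which 20.4% were called higher and 24.7% lower. Mcm5, a subunit of the replicative helicase, had 9.95, 9.31 and 9.13 CPM at 3 DPA, against 4.76, 4.49 and 4.85 CPM at 1 DPA (log2 fold change 1.01 ± 0.18, adjusted p = 0.000844). Fen1, a flap nuclease of lagging strand synthesis, had 14, 11.5 and 12.1 CPM at 3 DPA and 6.72, 6.2 and 6.34 CPM at 1 DPA (log2 fold change 0.97 ± 0.16, adjusted p = 0.000573). Cdt1, which loads the helicase, had 6.01, 5.77 and 4.86 CPM at 3 DPA and 2.2, 2.16 and 1.24 CPM at 1 DPA (log2 fold change 1.56 ± 0.27, adjusted p = 0.000722). Tk1, a thymidine kinase, was the member that fell, with 3.64, 3.4 and 2.81 CPM at 3 DPA, against 6.69, 8.23 and 8.44 CPM at 1 DPA (log2 fold change -1.25 ± 0.20, adjusted p = 0.000373).

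Mitosis genes gave 3 calls of 26. Mki67, the standard proliferation marker, had 7.79, 8.52 and 6.32 CPM at 3 DPA, against 6.75, 5.38 and 2.82 CPM at 1 DPA, with overlapping groups (log2 fold change 0.59 ± 0.35, adjusted p = 0.191). Top2a, a topoisomerase of dividing cells, had 9.35, 9.0 and 6.63 CPM at 3 DPA, against 6.47, 4.75 and 3.55 CPM at 1 DPA, above the 1 DPA range but not called (log2 fold change 0.75 ± 0.33, adjusted p = 0.0884). Ttk, a spindle checkpoint kinase, had 1.04, 1.16 and 0.971 CPM at 3 DPA and 0.551, 0.317 and 0.603 CPM at 1 DPA (log2 fold change 1.11 ± 0.29, adjusted p = 0.00813). The count of 3 was 1 without 1 DPA replicate 2 and 7 with the replicate number as a block.

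Cell cycle regulators differed by member, with 6 of 16 higher and 2 lower. Ccnd1, the cyclin that opens G1, had 113, 147 and 135 CPM at 3 DPA, against 68, 72.8 and 65.7 CPM at 1 DPA and rose (log2 fold change 0.94 ± 0.09, adjusted p = 1.75e-05). Ccnd2, the main D cyclin of mouse beta cells, had 704, 844 and 840.2 CPM at 3 DPA and 855, 808 and 659 CPM at 1 DPA and was not called (log2 fold change 0.04 ± 0.11, adjusted p = 0.782). Rbl2 rose (0.42 ± 0.07) while the related retinoblastoma gene Rb1 fell (-0.41 ± 0.06, adjusted p = 0.000312 and 0.000128).

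Growth factors and receptors gave 10 higher and 5 lower of 26. Igf2, a fetal growth factor, had 529.6, 238 and 362 CPM at 3 DPA, against 599.5, 765 and 1231 CPM at 1 DPA and fell (log2 fold change -1.2 ± 0.32, adjusted p = 0.0128), a call that ended with only the 6 libraries of both times (adjusted p = 0.0573) and without 1 DPA replicate 3 (adjusted p = 0.0555). Its receptor kinase gene Igf1r had 77.8, 98.7 and 105 CPM at 3 DPA, against 303, 322 and 232 CPM at 1 DPA, with a wide gap (log2 fold change -1.61 ± 0.13, adjusted p = 5.32e-06). Egfr had 25.8, 28.6 and 26.5 CPM at 3 DPA and 69.3, 94.1 and 62.2 CPM at 1 DPA and fell (log2 fold change -1.48 ± 0.13, adjusted p = 6.59e-06). The EGF family ligand Btc had 6.88, 5.26 and 6.24 CPM at 3 DPA, against 0.964, 0.976 and 1.11 CPM at 1 DPA and rose (log2 fold change 2.59 ± 0.38, adjusted p = 0.000241). Tgfb1 had 33.7, 22.9 and 31.8 CPM at 3 DPA and 11.9, 12.3 and 11 CPM at 1 DPA and rose (log2 fold change 1.33 ± 0.22, adjusted p = 0.000647). The mouse Hbegf gene, whose human counterpart is the receptor that the transgene encodes, had 12.2, 9.9 and 12.8 CPM at 3 DPA, against 12.1, 9.08 and 9.32 CPM at 1 DPA and was not called (log2 fold change 0.19 ± 0.40, adjusted p = 0.717). The count of 10 became 6 without 3 DPA replicate 1.

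Prolactin and serotonin genes gave 1 higher and 3 lower of 13 (30.8% called, fewer than the 45.1% of all genes). Socs2, a feedback target of STAT5, had 28.1, 22.4 and 34.3 CPM at 3 DPA, against 63, 55.1 and 82 CPM at 1 DPA and fell (log2 fold change -1.24 ± 0.20, adjusted p = 0.000735). Stat5b had 122, 123 and 131 CPM at 3 DPA and 207, 167 and 186 CPM at 1 DPA (log2 fold change -0.57 ± 0.08, adjusted p = 0.000202). Prlr, the prolactin receptor, had 236, 273 and 267 CPM at 3 DPA and 471, 413 and 292 CPM at 1 DPA (log2 fold change -0.60 ± 0.16, adjusted p = 0.0102). Tph1, which makes serotonin in islets of pregnancy, stayed under 1 CPM in all 6 libraries (0.212, 0.396 and 0.248 CPM at 3 DPA and 0.854, 0.554 and 0.412 CPM at 1 DPA).

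Histone genes of the replication-dependent clusters moved in both directions, with 8 of 59 higher and 18 lower (median -0.41). Near-identical copies make the reads of individual members uncertain. The libraries were made with an mRNA kit, and how fully it captures histone transcripts was not tested. These counts therefore need not follow total histone RNA. Hist1h4c had 11.4, 4.58 and 5.02 CPM at 3 DPA, against 0.523, 0.554 and 0.507 CPM at 1 DPA (log2 fold change 3.72 ± 0.41, adjusted p = 3.12e-05). Hist2h3c1 had 26.5, 18.6 and 22.6 CPM at 3 DPA, against 87.8, 73.4 and 79.5 CPM at 1 DPA (log2 fold change -1.83 ± 0.21, adjusted p = 7.21e-05). The 8 became 5 when each 1 DPA library in turn, or 3 DPA replicate 1, was left out, and the 18 became 11 without 1 DPA replicate 1 and 10 without 3 DPA replicate 2.

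Cytosolic ribosomal protein genes were called higher in 60 of 77 cases and lower in none, with a median of 0.30. Their sums were 16740, 14700 and 16550 CPM at 3 DPA and 12850, 12810 and 13250 CPM at 1 DPA. Rplp0, a protein of the ribosomal stalk, had 450.2, 409 and 436 CPM at 3 DPA, against 287, 287 and 282 CPM at 1 DPA (log2 fold change 0.60 ± 0.06, adjusted p = 2.44e-05). Of 9 genes for elongation factor 2 and its modification, 1 was higher and 4 lower. Eef2, the target of the toxin, had 1852, 1646 and 1802 CPM at 3 DPA, against 1846, 1729 and 1781 CPM at 1 DPA and was not called (log2 fold change -0.01 ± 0.06, adjusted p = 0.862). The sign of its small change depended on the scaling and on single libraries. Among enzymes that build the diphthamide residue of Eef2, Dph5 had 3.81, 3.76 and 3.9 CPM at 3 DPA, against 9.17, 6.89 and 6.98 CPM at 1 DPA and fell (log2 fold change -1.0 ± 0.15, adjusted p = 0.000204). Dph2 had 7.68, 8.35 and 9.38 CPM at 3 DPA and 12, 12.9 and 13.5 CPM at 1 DPA (log2 fold change -0.60 ± 0.13, adjusted p = 0.00314). Dph1 had 17.2, 19.2 and 18.5 CPM at 3 DPA and 29.7, 24 and 24.7 CPM at 1 DPA (log2 fold change -0.51 ± 0.10, adjusted p = 0.00138). Dph3 was not called (0.11 ± 0.07).

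Host transcripts of small nucleolar RNAs, which are degraded during translation, fell in 7 of 13 cases and rose in 1. Snhg12 had 19, 11.5 and 10.2 CPM at 3 DPA, against 44.7, 41.4 and 45.2 CPM at 1 DPA (log2 fold change -1.69 ± 0.19, adjusted p = 4.19e-05). The 3 DPA values lay well below. Epb41l4aos had 10.4, 6.59 and 9.09 CPM at 3 DPA and 21.9, 19.6 and 29.5 CPM at 1 DPA (log2 fold change -1.44 ± 0.19, adjusted p = 0.000102). Snhg17 had 23.9, 22.4 and 16.6 CPM at 3 DPA and 42.3, 38.9 and 52.4 CPM at 1 DPA (log2 fold change -1.09 ± 0.16, adjusted p = 0.000251). Gas5, the best known member, had 51.8, 56 and 45.4 CPM at 3 DPA, against 54.2, 58 and 53.8 CPM at 1 DPA and was not called (log2 fold change -0.12 ± 0.08, adjusted p = 0.273).

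Genes of the mitochondrial genome rose in 12 of 13 cases, a count that was 7 without 3 DPA replicate 2. mt-Nd1 had 1238, 1441 and 1221 CPM at 3 DPA, against 864, 902 and 776 CPM at 1 DPA (log2 fold change 0.62 ± 0.09, adjusted p = 0.000148). The whole genome took 2.14% ± 0.188 of counts at 3 DPA and 1.67% ± 0.0867 at 1 DPA (SD, n = 3 each, exact permutation p = 0.1, two-sided). Nuclear-encoded respiratory chain genes split, with 6 of 28 higher and 10 lower. Their median of -0.07 was 0.04 without the 50 most abundant genes, where the 10 became 3. Ndufa4 had 41.6, 40.8 and 45.1 CPM at 3 DPA, against 22.6, 24.6 and 22.4 CPM at 1 DPA and rose (log2 fold change 0.87 ± 0.08, adjusted p = 6.45e-06). Cyc1 had 55.4, 57 and 57.9 CPM at 3 DPA and 75.5, 70.0 and 69.6 CPM at 1 DPA and fell (log2 fold change -0.34 ± 0.07, adjusted p = 0.00183). Of 31 proteasome genes 7 were higher and 8 lower, shares close to those of all genes. Their median of -0.03 was 0.08 without the 50 most abundant genes. The 8 became 5 in that setting and without 3 DPA replicate 2. The called members of lowest p, Psmd4, Psmc5 and Psmc4, fell (log2 fold changes -0.44 ± 0.07, -0.37 ± 0.06 and -0.42 ± 0.07).

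Sterol synthesis genes rose in 8 of 18 cases and fell in 2. Stard4, a sterol carrier, had 55.3, 43.6 and 46.6 CPM at 3 DPA, against 26.9, 27.1 and 33.1 CPM at 1 DPA (log2 fold change 0.74 ± 0.10, adjusted p = 0.000164). Lss, the cyclase that makes lanosterol, had 50.5, 53.1 and 51.3 CPM at 3 DPA and 75, 76.1 and 94.1 CPM at 1 DPA and fell (log2 fold change -0.66 ± 0.09, adjusted p = 0.000128). Fatty acid synthesis genes gave 4 higher and 1 lower of 11. Fads1, a desaturase, had 71.3, 80.1 and 75.8 CPM at 3 DPA and 62.3, 60.4 and 58.3 CPM at 1 DPA (log2 fold change 0.33 ± 0.06, adjusted p = 0.00123). Acaca, the carboxylase that starts the pathway, had 47, 54.9 and 55 CPM at 3 DPA and 63.4, 57.2 and 69.3 CPM at 1 DPA and fell (log2 fold change -0.28 ± 0.09, adjusted p = 0.0229).

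The rule for the largest changes also named genes outside these lists. P2rx7, an ATP-gated channel, had 192, 137 and 81.7 CPM at 3 DPA, against 4.41, 5.65 and 8.24 CPM at 1 DPA. It was 22.6-fold higher with no overlap (log2 fold change 4.5 ± 0.40, adjusted p = 2.63e-05). Msr1, a scavenger receptor of macrophages, had 7.36, 3.2 and 3.92 CPM at 3 DPA and 0.413, 0.264 and 0.412 CPM at 1 DPA (log2 fold change 3.73 ± 1.00, adjusted p = 0.0129). Ccl21a, an attractant of dendritic cells and T cells, had 14.6, 20.3 and 22.7 CPM at 3 DPA and 0.771, 2.14 and 1.9 CPM at 1 DPA (log2 fold change 3.58 ± 0.92, adjusted p = 0.0113). Thbs4, a matrix thrombospondin, had 23, 5.69 and 3.55 CPM at 3 DPA and 0.385, 1.03 and 0.951 CPM at 1 DPA (log2 fold change 3.77 ± 1.08, adjusted p = 0.0185), with replicate 1 well above the other 3 DPA libraries, and its call was lost without that library (2.55 ± 0.94, adjusted p = 0.0611). Kctd19 had 6.22, 4.24 and 2.81 CPM at 3 DPA and 0.193, 0.106 and 0.698 CPM at 1 DPA (log2 fold change 3.77 ± 0.58, adjusted p = 0.000322). Ccl22 had 4.61, 1.98 and 11.1 CPM at 3 DPA and 0.193, 0.132 and 0.412 CPM at 1 DPA (log2 fold change 4.61 ± 1.58, adjusted p = 0.0395), a call lost with limma-voom, without the filter and without several libraries. The calls of Msr1 and Thbs4 were also lost with limma-voom. In untreated islets Ccl22, Msr1, Thbs4 and Ccl21a averaged 7.78 ± 10.1, 3.96 ± 3.28, 6.98 ± 7.11 and 13.4 ± 6.5 CPM (SD, n = 3). Those CTRL means lay above the 1 DPA means and, given their spread, near the 3 DPA levels. P2rx7 and Kctd19 averaged 6.34 ± 2.23 and 0.356 ± 0.175 CPM in CTRL, near their 1 DPA levels.

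The largest falls were in Cyp26b1, which degrades retinoic acid, with 1.1, 0.905 and 0.537 CPM at 3 DPA, against 34.1, 2.56 and 51 CPM at 1 DPA. The 1 DPA values spread widely, between 2.56 and 51.0 CPM. The fold change had a large error (log2 fold change -5.1 ± 0.95, adjusted p = 0.00211). The call was lost with limma-voom. Diras2, a small GTPase, had 4.63, 3.28 and 5.41 CPM at 3 DPA, against 70.0, 76.8 and 46 CPM at 1 DPA, with a clear gap (log2 fold change -3.85 ± 0.26, adjusted p = 2.52e-06). Hhipl2 had 2.14, 2.12 and 1.61 CPM at 3 DPA and 15.1, 14.8 and 20.4 CPM at 1 DPA (log2 fold change -3.1 ± 0.21, adjusted p = 1.75e-06). Cldn15, a tight junction protein, had 1.82, 1.75 and 1.86 CPM at 3 DPA and 11.7, 11.8 and 22.1 CPM at 1 DPA (log2 fold change -3.06 ± 0.45, adjusted p = 0.000294). Gls2, a mitochondrial glutaminase, had 3.34, 3.4 and 3.12 CPM at 3 DPA and 29.1, 21.9 and 15.4 CPM at 1 DPA (log2 fold change -2.75 ± 0.38, adjusted p = 0.000212). Slc3a1, an amino acid transporter subunit, had 2.12, 1.16 and 1.05 CPM at 3 DPA and 9.53, 8.92 and 13.5 CPM at 1 DPA (log2 fold change -2.88 ± 0.31, adjusted p = 2.63e-05). Grin3b, a glutamate receptor subunit, had 1.35, 1.61 and 1.14 CPM at 3 DPA and 8.37, 8.05 and 9.8 CPM at 1 DPA (log2 fold change -2.68 ± 0.21, adjusted p = 3.72e-06). The others named by the rule, Mslnl, Lingo4, Fam129c and Ccdc178, had log2 fold changes of -2.89 ± 0.32, -2.71 ± 0.38, -2.69 ± 0.22 and -2.64 ± 0.19.

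Levels in untreated islets and at 5 DPA place these differences. Egr4 averaged 0.152 ± 0.0311 CPM in CTRL, 21.9 ± 2.65 at 1 DPA, 792 ± 412 at 3 DPA and 212 ± 33.5 at 5 DPA (SD, n = 3 each). Cxcl10 averaged 5.2 ± 3.99 CPM in CTRL, 3.78 ± 2.31 at 1 DPA, 119 ± 44.9 at 3 DPA and 44.2 ± 4.86 at 5 DPA. Both were highest at 3 DPA. Nfil3 averaged 21.2 ± 1.9 CPM in CTRL, 219 ± 29.5 at 1 DPA, 52.1 ± 9.27 at 3 DPA and 38.9 ± 6.95 at 5 DPA. Pde10a averaged 31.9 ± 3.62 CPM in CTRL, 461 ± 9.87 at 1 DPA, 88.1 ± 6.59 at 3 DPA and 65.3 ± 10.3 at 5 DPA. Both of these were highest at 1 DPA. Igf2 averaged 12.7 ± 2.55 CPM in CTRL, 865 ± 328 at 1 DPA, 376 ± 146 at 3 DPA and 169.7 ± 16.8 at 5 DPA. Hspa5 averaged 1382 ± 121 CPM in CTRL, 732 ± 96.8 at 1 DPA, 1427 ± 70.5 at 3 DPA and 1402 ± 101 at 5 DPA, and it was low at 1 DPA only. Slc2a2 averaged 1038 ± 93.5 CPM in CTRL, 507 ± 60.7 at 1 DPA, 740.1 ± 68.5 at 3 DPA and 774 ± 101 at 5 DPA. Col1a1 averaged 205 ± 124 CPM in CTRL, 94 ± 16.6 at 1 DPA, 334 ± 114 at 3 DPA and 824 ± 349.9 at 5 DPA. C1qb, a complement component made by macrophages, averaged 40.0 ± 21.6 CPM in CTRL, 12.6 ± 1.71 at 1 DPA, 35.2 ± 8.41 at 3 DPA and 75.2 ± 13.9 at 5 DPA. Both Col1a1 and C1qb were highest at 5 DPA, and the CTRL libraries spread widely. Mcm5 averaged 8.6 ± 1.56 CPM in CTRL, 4.7 ± 0.191 at 1 DPA, 9.46 ± 0.428 at 3 DPA and 19.1 ± 5.0 at 5 DPA, also highest at 5 DPA.

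**Figure D5:**
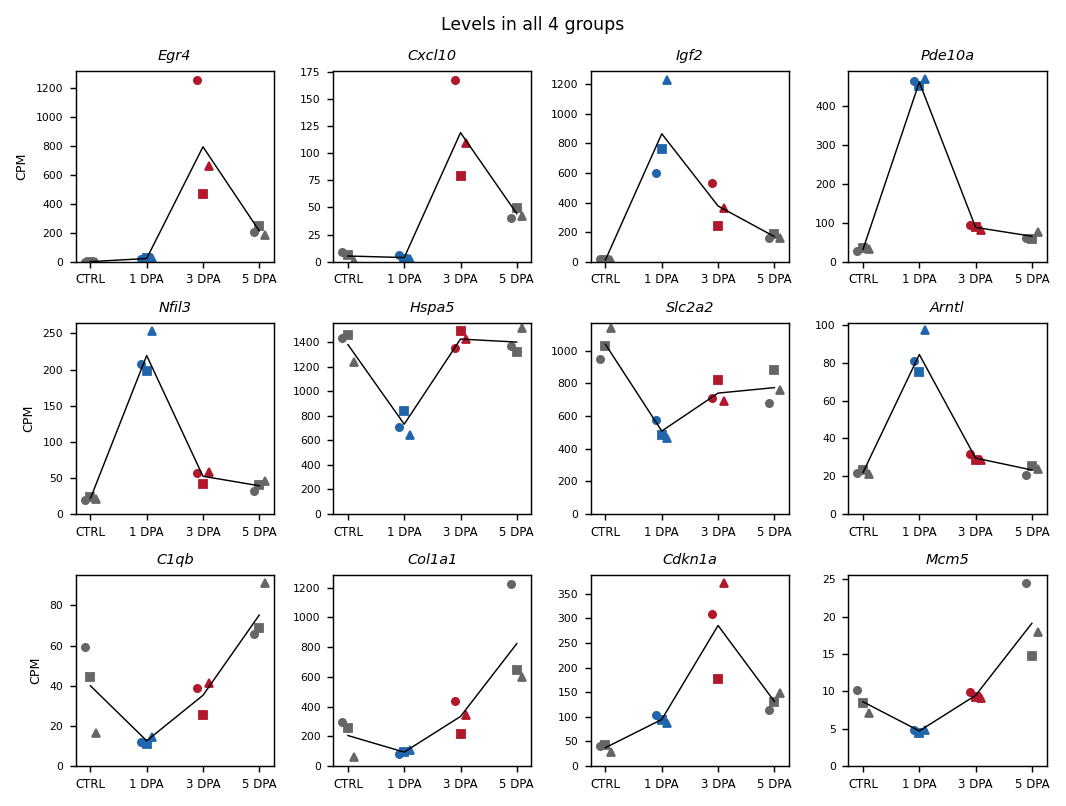
CPM (linear axes from 0) of 12 genes in CTRL and at 1, 3 and 5 DPA, 1 point per library with the mean. Egr4 and Cxcl10 peak at 3 DPA, Nfil3, Igf2 and Pde10a peak at 1 DPA, Hspa5 is lowest at 1 DPA, and C1qb, Col1a1 and Mcm5 are highest at 5 DPA.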

How the data were processed

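RNA was extracted from islets with RNeasy Mini columns and made into libraries with a QIAseq stranded mRNA kit, per the labels' protocols. The deposited table holds read counts in whole numbers for each gene (per the file headers). The build is mm10, per the submitters' processing notes. How reads were aligned and counted, and with which annotation and strand setting, is not given in the sources used here. The fits used 12 columns of counts from it and left out its 36 other per-sample columns.

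Libraries were grouped by their titles. Genes that passed filterByExpr (minimum count 10) were analysed over all 12 libraries with TMM scaling and the robust quasi-likelihood fit of edgeR, with 1 mean per group. A gene was called in the 3 DPA minus 1 DPA contrast where its p, adjusted by Benjamini-Hochberg over all 17294 genes, was below 0.05. Coordinates are from GENCODE M21 of mm10 (48349 identifiers matched, 17257 of the genes tested) and promoters from RefSeq. Library totals ran from 29867083 to 48568665 counts in the 6 libraries, and floors of 3 counts cover counting error only. Replicates of every group differed by more than sampling noise. On simulated counts for 17100 genes the fit recovered 72% of genes changed by a log2 fold change of 1 and 65% of those changed by -1, and 8 of 145 calls were false. Only 100 genes were raised and 100 lowered in that simulation. Its rates need not hold for the real contrast, where 45.1% of genes were called. The software was edgeR 4.0.16, DESeq2 1.42.0 and limma 3.58.1 under R 4.3.3, with Python 3.11.15.

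The comparison, the 43 gene lists (840 symbols, 1 without a row) and the rules were chosen with earlier results of these data known. Genes were named by a rule: the 12 largest rises and 12 largest falls among called genes whose groups did not overlap and whose average log2 CPM was 1 or more, without genes that have only a predicted or clone name; in each list, the 3 or fewer called members with the lowest p; the 5 called genes with the largest difference in mean CPM; and Ins1, Ins2, Slc2a2, Igf2, Hbegf, Egr1, Cdkn1a, Mki67, Top2a, Eef2, Gcg and Sst. Some genes that the rule named are not reported here. Further list members are named as examples, chosen after their values were seen. Alternatives replaced TMM by RLE or by library sizes taken without the 50 most abundant genes, edgeR by DESeq2 or limma-voom, and the filter by none. Others fitted only the 6 libraries of both times, added the replicate number as a block, or left out each library in turn. The ER stress response and NF-kB motifs were added after seeing the data.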

Additional observations from a re-analysis of the deposited data

How the results depend on the processing

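The number of genes called was 7808 with RLE scaling, 8256 with library sizes without the 50 most abundant genes, 8355 with DESeq2, 7474 with limma-voom, 7399 without the filter, 8291 with only the 6 libraries of both times and 7366 with the replicate block, against 7805 as reported. Leaving out 1 library gave 6173 (3 DPA replicate 3) to 8634 (CTRL replicate 3), and 77.9% to 99.6% of the calls were kept in the same direction. Deviations from the group mean correlated at -0.066, 0.127 and 0.023 between 3 DPA and 1 DPA libraries of the same replicate number. With 3 libraries a group, such values cannot show whether the numbers mark a shared animal or day.
Of 148 named genes 142 were called, and 125 kept the call under every setting and without each library. The call of 15 was lost without 1 or more libraries and of 12 under another setting (Ccl22, Thbs4, Msr1, Cyp26b1, Dusp10, Spry1, Hspa8, Nusap1, Bub1, Gcg, Dpp4, Gfap, Bhlha15, Reg3g, Ins1, Iapp and Igf2 in all). Eef2, not called, had a log2 fold change of 0.0941 with library sizes without the 50 most abundant genes, and -0.041 to 0.0343 when each library was left out in turn, against -0.01 as reported; the cause was not tested. With promoter windows of the 250 bases before the start only, fewer bases were searched. The heat shock element core was then in 5.30% of promoters of genes called higher, 6.15% of those called lower and 6.05% of all, the AP-1 site in 4.63% of those called lower and 5.97% of all, and the cAMP response element in 2.86% of all. Counts of 0 to 2 members in a list moved by up to 2 members with the setting or the library left out. Depth limits genes of few counts, such as Ccl7, Ccl8 and the lymphocyte markers.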

Other observations

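Motifs were counted in promoters of genes called in each direction, in the window from 250 bases before to 50 after the start. The cAMP response element TGACGTCA was in 2.11% of 2606 promoters of genes called higher, 5.11% of 3286 promoters of genes called lower and 3.32% of 12606 promoters of all genes tested. The AP-1 site TGANTCA was in 8.14%, 5.48% and 6.77% of the same promoters. Shares were close to each other for the NF-kB site (7.29%, 6.97% and 7.23%) and the CArG box (1.57%, 1.77% and 1.52%). The heat shock element core GAANNTTC was in 8 of 9 heat shock promoters (88.9%) and in 6.97% of all. The ER stress response element was in 10 promoters of genes called higher (0.384%) and 1 of those called lower (0.0304%). These shares are descriptions, and no test was made.

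Calls also varied with exon length among protein-coding genes. Of the 3152 genes in the shortest of 5 length classes, 24.0% were called higher and 15.7% lower. Of the 3147 genes in the longest class, 18.5% were called higher and 35.2% lower. Median log2 fold changes were 0.18 and -0.07 in those classes. The part of RNA length or integrity was not tested.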
